A study of Arabidopsis thaliana with 2 samples.

Results

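The 10 histone H3 genes described here were chosen by locus. They are 5 genes of the replicative form H3.1, 3 genes of the replacement form H3.3, the male gamete gene MGH3 (HTR10) and the centromeric gene CENH3 (HTR12). All 10 were found in the deposited table of ribosome-bound RNA, as 14 of its 37318 transcripts and 10 of its 31280 genes. All RNA was taken from unopened (immature) flower buds in clusters of the Col-0 accession of Arabidopsis thaliana, and the labels name no other genotype and no treatment of the plants. There were 2 libraries, 1 per assay, and no replicates. The first was a library of single-stranded RNA, deposited as a list of 33187 hotspots, which are stranded genome intervals of 50 to 1533 nt. Its label calls the nuclease specific for double-stranded RNA and names RNase ONE, an enzyme known to cut single-stranded RNA, so it is described by its name only. The second held RNA from pooled monosomes and polysomes of a 15 to 60% sucrose gradient. That RNA was fragmented as a whole, so its clones come from entire mRNAs that carried ribosomes and do not mark where the ribosomes sat. It gave 9574408 mapped clones, of which 574 lay on the 10 H3 genes.

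Markers of the sampled tissue matched its label. The 5 flower genes PI, AP3, SEP3, AG and AP1 lay between 0.852 and 7.71 RPKM (clones per kb of transcript per 1000000 mapped clones), all above the median gene. The median gene stood at 0.246 RPKM over the 23419 nuclear protein-coding genes above 0. The 3 tapetum genes GRP17, EXL6 and ATA1 lay between 2.18 and 16.1 RPKM. Of 3 root markers only IRT1 exceeded the median gene, at 0.282 RPKM, and PHT1;1 was at 0, with an upper limit of 0.176 RPKM. None of 3 seed markers exceeded it, and OLEO1 was at 0, with an upper limit of 0.345 RPKM. Such a limit stands for 3 clones. The intervals of the root and seed markers above 0 include the median gene, and the limit of OLEO1 lies above it. These markers are thus not resolved from the median gene. With single libraries no difference below has a replicate check and no test between groups exists. Intervals are 95% intervals on the weighted clones and cover counting error only, since clones carry no molecular identifiers.

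Histone H3 is a core protein of the nucleosome, around which DNA is wrapped. H3.1 is deposited behind the replication fork, mainly by the chaperone complex CAF-1, so its genes are known as S-phase genes. H3.3 is placed into chromatin at any time of the cell cycle, mostly over transcribed genes, through chaperones such as HIRA. MGH3 is known from sperm and generative cells of pollen, and CENH3 marks the nucleosomes on which kinetochores are built. Flower buds hold dividing meristems, growing organs and developing pollen.

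The 2 main forms are told apart by 4 residues, numbered without the start codon. All 5 H3.1 genes encode alanine at 31, phenylalanine at 41, serine at 87 and alanine at 90. All 3 H3.3 genes encode threonine, tyrosine, histidine and leucine there. Within each form the encoded proteins did not differ at any residue, in 10 pairs of H3.1 genes and 3 pairs of H3.3 genes. The coding sequences differed nonetheless, which matters for telling copies apart by sequencing. The stretch of residues 26 to 35, which holds the tail residue 31, is shown for all 8 genes from the RefSeq TAIR10.1 genome, 5′ to 3′ on the coding strand. Capitals mark the codon of residue 31. The first 5 are H3.1 genes and the last 3 H3.3 genes.
AT1G09200: aggaaatctgctccgGCCaccggaggagtg
AT3G27360: aggaaatcagctccaGCCaccggaggagtg
AT5G10390: aggaaatctgctccgGCCaccggaggagtg
AT5G10400: aggaaatcagctccaGCCaccggaggagtg
AT5G65360: aggaaatcagctccgGCGaccggaggagta
AT4G40030: cgtaaatctgcaccaACTactggtggagtc
AT4G40040: cgtaagtctgcaccaACCactggaggagtc
AT5G10980: aggaaatcagcaccaACCaccggaggagtc

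The 8 genes had 6 different sequences in that stretch, 3 among the H3.1 genes and 3 among the H3.3 genes. AT1G09200 shared its 30 nt with AT5G10390, and AT3G27360 shared its 30 nt with AT5G10400. The stretch of residues 84 to 93 in the histone fold holds residues 87 and 90, whose codons are in capitals, and there all 8 sequences were different.
AT1G09200: ttccagagcAGTgccgtcGCCgctcttcag
AT3G27360: tttcagagtAGTgcagtcGCAgctcttcaa
AT5G10390: tttcagagcAGTgctgttGCTgctttacaa
AT5G10400: ttccagagcAGTgccgtcGCAgctcttcag
AT5G65360: ttccagagcAGCgccgtcGCAgcacttcag
AT4G40030: ttccagagcCATgctgtcTTAgctctccag
AT4G40040: ttccagagcCATgctgtgCTTgcactccag
AT5G10980: tttcagagtCACgcggtgTTAgctcttcaa

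Over the whole coding sequence of 411 nt (isoform 1 of AT4G40030), the H3.1 genes were 80.3 to 89.5% identical to each other (median 84.5%). The H3.3 genes were 78.6 to 88.8% identical (median 79.8%). Pairs of an H3.1 and an H3.3 gene were 74.0 to 80.3% identical (median 78.1%). Of the differences within a form, 87.9% in H3.1 and 88.0% in H3.3 lay at the third base of a codon. The composition of that base varied widely. It was G or C in 33.6% of the codons of AT3G27360 and in 57.7% of those of AT1G09200, against a median of 42.0% over all genes above 0. The other 3 H3.1 genes lay between 48.2 and 49.6%. The H3.3 genes ran from 38.0% in AT4G40030 to 51.1% in AT5G10980, MGH3 had 52.2% and CENH3 35.2%.

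All 5 H3.1 genes stood well above the median gene in ribosome-bound RNA, and their levels spanned 3.44-fold. AT5G10400 (chromosome 5, bases 3270172 to 3270957, minus strand, TAIR10.1 annotation) was the highest, at 9.18 RPKM (6.97 to 11.9) from 85 clones, 58.3 after the authors' weights. AT1G09200 (chromosome 1, bases 2971571 to 2972334, minus strand) followed at 7.44 RPKM (5.39 to 10.02) from 57 clones. AT5G65360 (chromosome 5, bases 26119859 to 26120581, minus strand) stood at 5.82 RPKM (4.16 to 7.91) from 51 clones. Per listed length, AT5G10400 was 1.58-fold over AT5G65360 (1.04 to 2.42), and the intervals of the ratios of AT1G09200 to either of them held 1. Listed and TAIR10.1 mRNA lengths differ unevenly. They are 664 and 786 nt for AT5G10400, 607 and 764 nt for AT1G09200, and both 723 nt for AT5G65360. Levels per TAIR10.1 length were not computed, so the narrow 1.58-fold difference holds for listed lengths only.

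AT3G27360 (chromosome 3, bases 10129105 to 10129937, minus strand) stood at 2.86 RPKM (1.81 to 4.30) from 42 clones. AT5G10390 (chromosome 5, bases 3268847 to 3269594, minus strand) stood at 2.67 RPKM (1.58 to 4.22) from 26 clones. AT5G10390 and AT5G10400 are neighbours, 577 nt apart on the same strand and with the same protein, yet AT5G10400 was 3.44-fold higher (counting interval 1.997 to 6.19). All 5 H3.1 mRNAs are annotated with a single exon.

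The 3 H3.3 genes spanned 4.19-fold, and 1 of them led the whole family. AT4G40040 (chromosome 4, bases 18557149 to 18558945, minus strand) stood at 18.7 RPKM (15.8 to 21.9) from 191 clones, 76.0-fold over the median gene and above 99.6% of genes above 0. AT4G40030 (chromosome 4, bases 18555532 to 18557106, minus strand) stood at 8.67 RPKM (6.67 to 11.1) from 80 clones. AT5G10980 (chromosome 5, bases 3472405 to 3473570, minus strand) was the lowest, at 4.46 RPKM (3.02 to 6.35) from 38 clones. The first 2 lie 42 nt apart on the same strand, and AT4G40040 was 2.15-fold higher (1.60 to 2.93).

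The H3.3 mRNAs are annotated with 3 to 5 exons. AT4G40030 has 3 listed isoforms, which share nearly all their clones and ranged from 6.63 to 8.67 RPKM with their listed lengths. Isoform 2 of AT4G40030 is used here because it has the longest coding sequence, 495 nt against 411 nt in the other 2. AT4G40040 has 2 listed isoforms at 18.7 and 16.5 RPKM.

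Replicative and replacement forms were about level when each form was summed over its genes. The 5 H3.1 genes summed to 27.96 RPKM (24.2 to 32.3) and the 3 H3.3 genes to 31.8 RPKM (28.1 to 36.02), a ratio of 0.879 (0.726 to 1.07) whose counting interval includes 1. H3.3 made up 52.8% of the summed level of the 10 genes and H3.1 46.5%. Per gene the H3.3 mean was 1.90-fold higher, 10.6 RPKM against 5.59 RPKM. This balance rested on AT4G40040, which held 58.7% of the H3.3 sum. Without it, the H3.1 sum was 2.13 times that of the remaining H3.3 genes. With clones counted without weights the ratio was 1.002.

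Along the order of the 10 levels, 2 of 9 steps between neighbours were larger than counting error. The step from AT4G40040 down to AT5G10400 was 2.03-fold (1.496 to 2.80), and that from AT5G10390 down to CENH3 was 11.6-fold (2.78 to 103). The other 7 intervals held 1. So the 7 genes from AT5G10400 to AT5G10390 formed a graded series in which H3.1 and H3.3 genes were mixed, and adjacent ranks in it were not resolved.

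**Figure D1:**
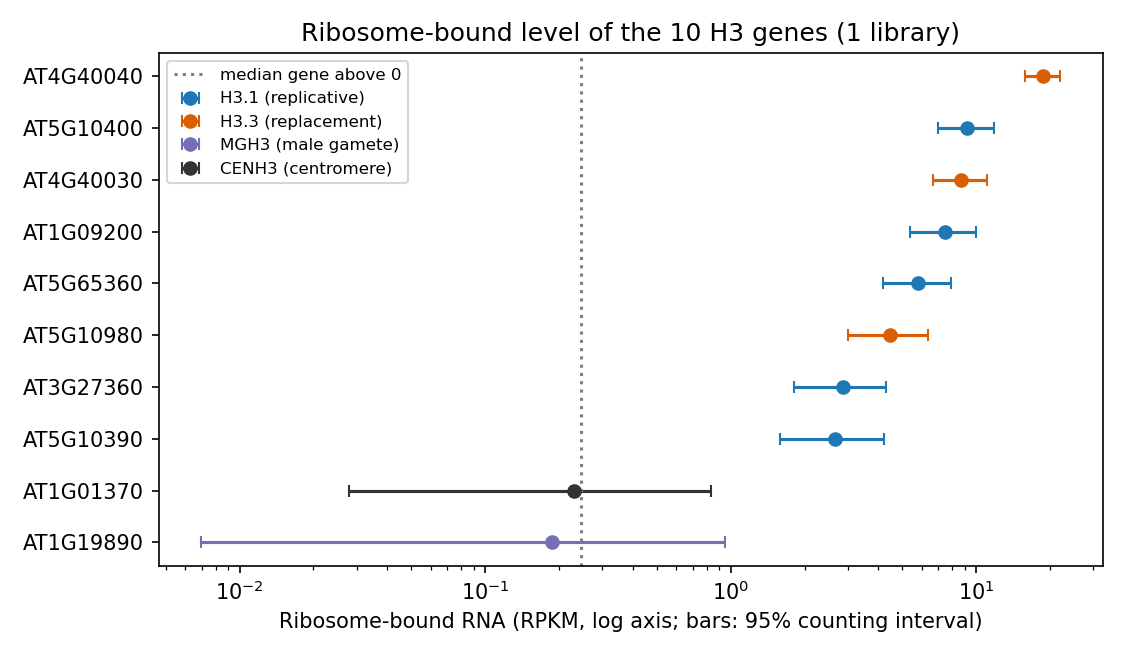
Ribosome-bound RNA of the 10 H3 genes in 1 library, in RPKM on a log axis, with points coloured by H3 form and bars for the 95% counting interval. The 8 H3.1 and H3.3 genes lie between 2.67 and 18.7 RPKM, right of the dotted line at the median gene (0.246 RPKM), and the intervals of CENH3 and MGH3 span that line.

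The 2 specialised genes were near the lower limit of what the library resolves. CENH3 (AT1G01370, chromosome 1, bases 143489 to 146479, plus strand) stood at 0.230 RPKM (0.0278 to 0.830) from 2 clones. MGH3 (AT1G19890, chromosome 1, bases 6904963 to 6906028, plus strand) stood at 0.187 RPKM (0.00700 to 0.949) from 2 clones, 1.14 after weights. Both lay below the median gene, and their intervals include it. In all, 8 of the 10 H3 genes lay above the median gene, where 50.0% of genes above 0 lie by definition. The summed H3.1 and H3.3 level was 260-fold that of CENH3, a loose figure since it rests on the 2 clones of CENH3. In a whole-bud sample, fewer cells of a type and less RNA per cell cannot be told apart.

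The 4 other H3-like genes in both sources were also low. AT5G12910 stood at 0.528 RPKM (0.0639 to 1.91), HTR11 (AT5G65350) at 0.354 RPKM (0.0456 to 1.25), AT1G75600 at 0.197 RPKM (0.00498 to 1.10) and AT1G13370 at 0.161 RPKM (0.00408 to 0.898). HTR11 lies 33 nt from AT5G65360 on the same strand, and AT5G65360 was 16.4-fold higher (4.36 to 132). HTR11 had 7 clones that were weighted to 2.08. Genes 33 to 577 nt apart thus differed by 2.15- to 16.4-fold in the 3 adjacent pairs compared.

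Clone weights enter each of these levels, and they were higher for H3 than for H4 and H2B genes. The mean weight per clone, the weighted over the unweighted count, was 0.803 over the 3 H3.3 genes and 0.700 over the 5 H3.1 genes. It ranged from 0.543 for AT3G27360 to 0.806 for AT4G40040 among these 8. It was 1 for CENH3 and 0.571 for MGH3, each from 2 clones. The median over the 10 H3 genes was 0.774, against 0.583 for all genes above 0, 0.714 for H2A, 0.532 for H4 and 0.466 for H2B genes.

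The weights can be set beside the share of copy-specific sequence. Of the 20-nt words of the coding sequence, 83.9% occurred once in the genome in H3.1 genes and 90.3% in H3.3 genes. Single genes ranged from 76.3% in AT5G10400 to 93.8% in AT5G10980, with 93.2% in MGH3 and 100% in CENH3. Among the H3-like genes outside the 10, AT1G75600 had the least, 43.3%. In the 3′ UTRs the shares were 97.2% in H3.1 genes and 99.0% in H3.3 genes. In H4 genes 44.6% of coding words occurred once, as a pooled share, with single genes from 21.2 to 94.2%. The pooled share was 79.2% in H2B genes, the list with the lowest median weight, and 88.9% in H2A genes. It was 86.2% in the H3.1 and H3.3 genes together. Most 20-nt words of the H3.1 and H3.3 mRNAs were thus specific to 1 copy, although the proteins within each form are identical. If each word counted as 1 over its copies in the genome, the mean over the mRNA would be 0.931 for AT3G27360 and 0.975 for AT4G40040, above their mean weights of 0.543 and 0.806. All 8 H3.1 and H3.3 genes had such a gap. The formula behind the weights is not stated, and the part of shared words in the weights was not tested.

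**Figure D2:**
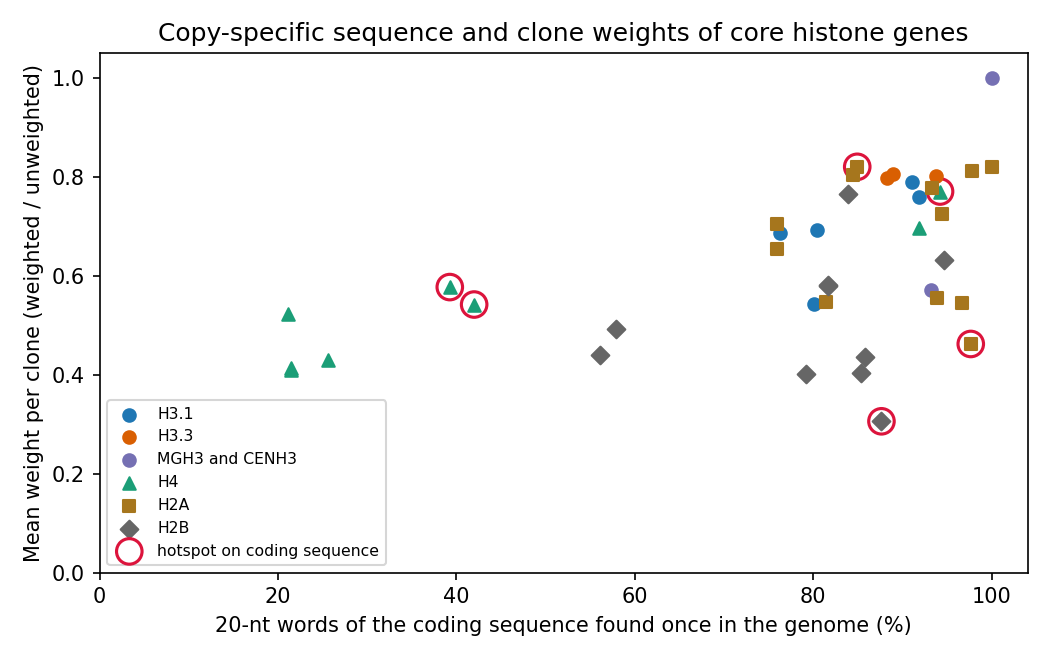
Each point is 1 core histone gene, with the percentage of 20-nt words of its coding sequence that occur once in the genome on the x axis and its mean weight per clone on the y axis; red rings mark genes with a hotspot on coding sequence. H3.1 and H3.3 genes lie between 76.3 and 93.8% on x and carry no ring. Of the 8 H4 genes, 3 carry one, at 39.2, 42.0 and 94.2%, and the lowest H4 gene, at 21.2%, does not. The ringed H2A genes lie at 84.9 and 97.6% and the ringed H2B gene at 87.6%.

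On the isoforms used for the levels, hotspots of the single-stranded library lay on 5 of the 10 H3 genes, each in the 3′ UTR. Isoform 1 of AT4G40030 had 1 more, in its 5′ UTR, which is described below and not counted here. There were 6 such hotspots on the strand of the gene, covering 424 exon bases and no coding base. They lay on 1 of 5 H3.1 genes, 2 of 3 H3.3 genes, MGH3 and CENH3. A hotspot was counted where at least 1 base overlapped an exon. Of all 23419 genes above 0, 57.8% had such a hotspot. Of the 258 other genes within the listed length (607 to 861 nt) and level range (2.67 to 18.7 RPKM) of the H3.1 and H3.3 genes, 39.9% had one, against 3 of these 8. Over the wider range set by all 10 H3 genes it was 46.6% of 1892 genes. So the number of H3 genes with a hotspot was near the background. Here and below, genes of like length were matched on listed length, while hotspots were counted over TAIR10.1 exons. These lengths can differ, as for CENH3 with 909 nt listed and 1376 nt in TAIR10.1, so the match is approximate.

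The positions are those of the authors' build TAIR9, set beside TAIR10.1 gene models. On the H3.1 gene AT5G10400, a hotspot of 86 nt (chromosome 5, bases 3270296 to 3270381) began 97 nt after the end of the coding sequence. Its score was -3.59, and 12.6% of all hotspots had a score that strong or stronger, ties included. On AT4G40040 a hotspot of 70 nt (chromosome 4, bases 18557199 to 18557268) began 271 nt after the coding sequence, with a score of -3.02. On AT4G40030 a hotspot of 53 nt (chromosome 4, bases 18555613 to 18555665, score -3.15) began 175 nt after it, with 48 nt in the exon and the rest beyond the annotated end of isoform 2. The 3′ UTRs of these 3 mRNAs are 306, 368 and 222 nt long in that order. By the distances given, none of these 3 hotspots began directly at the stop codon.

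On the isoforms used, the 2 low genes carried as many hotspots as the 8 abundant ones. On MGH3 a hotspot of 50 nt (chromosome 1, bases 6905836 to 6905885, score -3.02) began 44 nt after the coding sequence. CENH3 had 2, of 56 nt (chromosome 1, bases 145433 to 145488, score -3.34) and 114 nt (bases 145749 to 145862, score -3.02), which began 33 and 349 nt after it. Of the 153 other genes in the listed length and level range of these 2 genes, 41.8% had a hotspot. AT1G09200, AT3G27360, AT5G10390, AT5G65360 and AT5G10980 had none. No hotspot lay on the opposite strand of an H3 gene's exons.

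**Figure D3:**
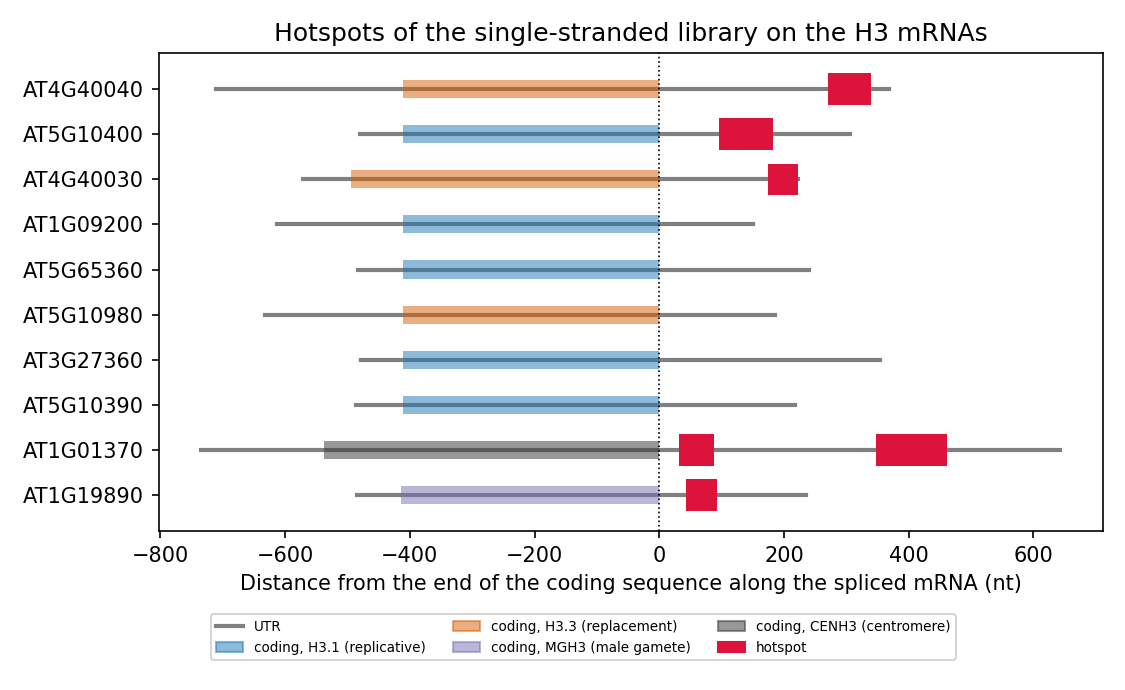
Spliced mRNAs of the 10 H3 genes, in order of level, drawn against the distance in nt from the end of the coding sequence; thin lines are UTRs, coloured boxes coding sequence and red boxes hotspots. All 6 hotspots on the isoforms used lie right of 0, in the 3′ UTR. The nearest starts 33 nt and the farthest 349 nt after the coding sequence.

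Most hotspots on mRNAs held coding sequence. Coding sequence made up 50.3% of the bases of the 10 H3 mRNAs and the 3′ UTR 34.0%. Among 27262 hotspots on mRNAs of genes above 0, 13.2% had no coding base and 9.47% lay with all exon bases in the 3′ UTR. Both shares were higher on short abundant mRNAs. Among the 132 hotspots on genes in the length and level range of the H3.1 and H3.3 genes, 31.8% had no coding base and 31.1% lay in the 3′ UTR. Over the range set by all 10 genes these shares were 26.2% and 22.0% of 1163 hotspots. The H3 count of 6 of 6 on the isoforms used stands beside these shares as a description of a small list. HTR11 added a further hotspot of this kind, of 57 nt, starting 3 nt after its coding sequence.

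Among the other core histone genes most hotspots held coding bases, as did most hotspots on all mRNAs. Of their 31 genes 7 had a hotspot, beside 57.8% of all genes above 0. Among genes like the H3.1 and H3.3 genes it was 39.9%. Coding bases were held by 8 of the 11 hotspots, while 13.2% of hotspots on all genes above 0 had none. AT5G02560 had 2 of the 11 and AT5G02570 had 3, and the spans of these 2 genes overlap on opposite strands. Of 5 H4 hotspots 4 held coding bases, on AT5G59690, AT5G59970 and AT3G53730. The share of coding words that occurred once in the genome was 39.2% in AT5G59690, 42.0% in AT5G59970 and 94.2% in AT3G53730. It was 84.9% in AT4G27230 and 97.6% in AT5G02560 (H2A) and 87.6% in AT5G02570 (H2B), the other genes with a hotspot on coding sequence. These shares lay on both sides of those of the H3.1 and H3.3 genes, and the part of shared words in where hotspots lay was not tested. At other annotated isoforms, AT4G40030 had 1 more hotspot, of 52 nt in the 5′ UTR of isoform 1, with a weak score of -1.27.

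The promoters of 3 H3.1 genes and 1 H3.3 gene held the octamer CGCGGATC, a motif known from promoters of plant histone genes. It was searched on both strands from 250 nt before to 50 nt after the annotated gene start. It was present in 38 of 26632 genes (0.143%), and 9 of these 38 were among the 41 core histone genes considered here. Neither MGH3 nor CENH3 had it. The sites are shown on the gene's strand with the octamer or its reverse complement in capitals, to let the flanks be compared. A position counts from the annotated gene start to the first base of the motif as printed.
AT1G09200, position -90: tcgtaccttcaCGCGGATCagtgttagaaa
AT1G09200, position -19: ctgtgatttcaCGCGGATCgtgatagaaac
AT5G10400, position -120: ttaacacaggaCGCGGATCgtaaagataca
AT5G65360, position -126: tttagacgtgaCGCGGATCactaaaattaa
AT4G40040, position -17: tttatttcagcGATCCGCGacggtttgtat

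These windows lie at chr1:2972406-2972435, chr1:2972335-2972364, chr5:3271059-3271088, chr5:26120689-26120718 and chr4:18558944-18558973 (TAIR10.1, minus strand). In AT4G40040 the motif read on the opposite strand. The hexamer ACGTCA, also known from plant histone promoters and not overlapping the octamer in its letters, was less specific. It was present in 9.23% of all genes, in 2 of 5 H3.1 genes (AT3G27360 and AT5G10400), in 1 of 3 H3.3 genes (AT5G10980) and in MGH3. H2B genes held it in 9 of 10 cases.

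Other core histone genes covered the range of the H3.1 and H3.3 genes below AT4G40040, and also lower levels. The median was 5.82 RPKM over the 5 H3.1 genes and 8.67 RPKM over the 3 H3.3 genes. It was 5.04 RPKM over 8 H4 genes, 4.73 RPKM over 10 H2B genes and 2.62 RPKM over 12 H2A genes above 0. H4 genes ran from 2.44 RPKM for AT1G07660 to 13.0 RPKM for AT5G59690, and H2B genes from 0.779 RPKM for AT2G28720 to 14.0 RPKM for HTB4. HTA9, an H2A.Z variant gene, at 6.26 RPKM (4.62 to 8.29) was not resolved from HTA10 at 6.22 RPKM (4.45 to 8.47) at the top of H2A. Without weights HTA10 was the higher, at 8.83 against 7.64 RPKM. HTA4 was at 0, with an upper limit of 0.878 RPKM. With the authors' weights AT4G40040 was the highest of all 41 core histone genes, 1.33-fold over HTB4 (1.03 to 1.72). Without weights it stood at 23.2 RPKM, below AT5G59970 at 23.3 RPKM.

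Most mRNAs for proteins that handle H3 stood below those of the H3.1 and H3.3 genes. Of the 8 chaperone genes 5 exceeded the median gene, and their own median was 0.274 RPKM. Among subunits of CAF-1, the chaperone of H3.1, MSI1 stood at 1.73 RPKM (1.14 to 2.52), FAS1 at 0.199 RPKM (0.0673 to 0.455) and FAS2 at 0.182 RPKM (0.0398 to 0.519). MSI1 also serves in Polycomb complexes. For H3.3, HIRA stood at 0.289 RPKM (0.141 to 0.525) and ATRX at 0.268 RPKM (0.138 to 0.469). The intervals of FAS1, FAS2, HIRA and ATRX overlapped. AT4G37210, the other gene of the list above 1 RPKM, stood at 1.34 RPKM (0.849 to 2.01). The intervals of MSI1 and AT4G37210 overlapped that of AT5G10390, the lowest H3.1 gene, and CENH3 and MGH3 lay below the chaperone median. Of the ASF1 genes, which hand H3 and H4 to other chaperones, SGA2 (ASF1A) stood at 0.281 RPKM (0.0543 to 0.843). ASF1B stood at 0.0532 RPKM, with the upper end of its interval at 0.498 RPKM.

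Of 14 genes for H3-modifying enzymes 8 exceeded the median gene, and the median of these 14 was 0.347 RPKM. The highest was AUR1, an Aurora kinase of mitosis, at 0.624 RPKM (0.251 to 1.29). The lowest was CLF, a Polycomb methyltransferase, at 0.0176 RPKM, with the upper end of its interval at 0.164 RPKM. For CENH3, the inner kinetochore gene CENP-C stood at 0.296 RPKM (0.117 to 0.619) and KNL2 (AT5G02520), needed to load CENH3, at 0.0780 RPKM (0.00613 to 0.325), both overlapping CENH3. MIS12 stood apart at 17.8 RPKM (15.0 to 20.9), from 426 clones with a mean weight of 0.342. Where these clones came from was not examined, so the value is given as deposited.

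The 10 S-phase replication genes, whose median was 0.692 RPKM, each exceeded the median gene. They ran from MCM5, a subunit of the replicative helicase, at 0.417 RPKM (0.199 to 0.771) to TSO2, a ribonucleotide reductase subunit, at 1.47 RPKM (0.882 to 2.30). The lowest H3.1 gene, AT5G10390 at 2.67 RPKM, was above all of them, though its interval overlapped those of 3 of the 10, TSO2 among them. The 4 sperm and male germline genes lay below the median gene, as MGH3 did. They ran from HAP2, a sperm fusion protein, at 0.0465 RPKM (0.00118 to 0.259) to GEX2 at 0.140 RPKM (0.0386 to 0.354).

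Hotspots were present on 6 of 8 chaperone genes, 11 of 14 modifying enzymes, 7 of 10 S-phase genes, 1 of 3 CENH3 loading and kinetochore genes and 1 of 4 germline genes, beside 57.8% of all genes above 0. Listed lengths ran from 981 to 4622 nt in the chaperone list and from 607 to 909 nt in the H3 genes, and the part of length in these counts was not tested.

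**Figure D4:**
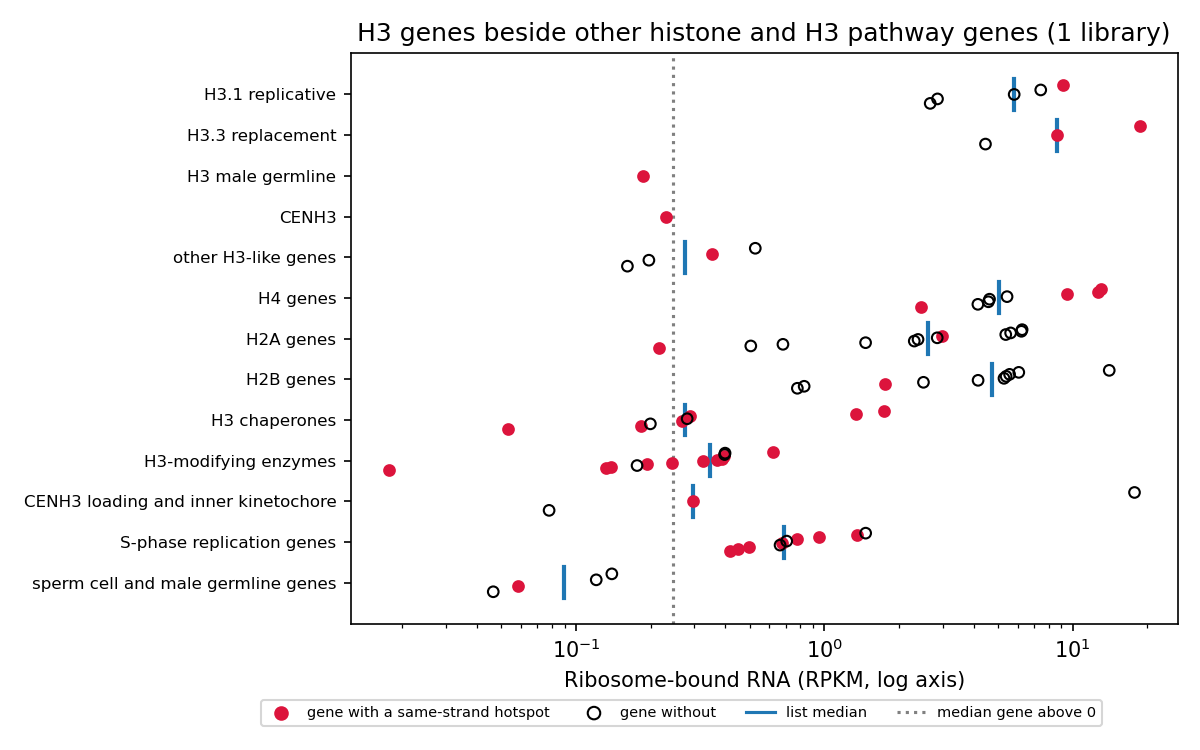
Ribosome-bound RNA in RPKM on a log axis for each gene above 0 of the H3 classes and of 9 other lists; red points are genes with a same-strand hotspot, open points genes without, blue bars list medians and the dotted line the median gene. H3.1 and H3.3 genes lie with H4, H2A and H2B genes, and most genes of the chaperone, modifying enzyme and germline lists lie below 1 RPKM.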

How the data were processed

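The 10 H3 genes and the gene lists were chosen with earlier results of these data known. The submitters' processing notes name TAIR9 as the build, with Bowtie 0.12.7 and cutadapt 0.9.5 among the tools. They name no counting program, no rule for the clone weights and no hotspot caller. The deposited table gives whole-number counts of clones and weighted clones, which are estimated counts made by the authors. Per the file headers, RPM is made by the authors from weighted clones per 1000000 mapped clones, and RPKM is that value per kb of listed length. For some genes the listed length is shorter than the TAIR10.1 mRNA. The deposited hotspot score is always below 0 and has no stated formula.

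Levels are the deposited RPKM of the isoform with the longest coding sequence present in both sources (26632 nuclear protein-coding genes, 23419 above 0). Intervals are Poisson for levels, conditional binomial for ratios of 2 genes, normal on the log scale for sums, at 95%. Gene models and sequences are RefSeq TAIR10.1. Positions of both builds were set together once their register was checked. Of hotspot bases on nuclear chromosomes, 82.3% lay in same-strand exons as deposited, 64.2% when moved by 100 nt and 23.2% when moved by 10000 nt. Hotspots are taken as BED intervals and printed 1-based. Words of 20 nt were counted on both strands of the genome within exons. Named genes are the 10 members, the other H3-like genes, all chaperone and CENH3 loading genes, and the highest and lowest of each other list; the markers are named to check the tissue. AT1G75610, annotated as a pseudogene, was not analysed here. The motifs were searched, and the genes of like length and level taken per class, after the levels were known. Intervals, overlaps and word counts were tested on simulated data. Python 3.11.15, numpy 2.4.6, pandas 2.3.3, scipy 1.17.1, Biopython 1.88 and matplotlib 3.10.9 were used.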

Additional observations from a re-analysis of the deposited data

How the results depend on the processing

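The log2 ratio of the H3.1 to the H3.3 sum was -0.19 (-0.46 to 0.09). It ranged from -0.76 to 1.09 with each gene left out in turn, the extremes being without AT5G10400 and without AT4G40040. It was -0.58 between class medians, and it stayed inside its interval without weights, per coding length and with the highest isoform. The median level of the 10 genes, 5.14 RPKM, became 6.46 without clone weights and 8.99 per kb of coding sequence, since fewer bases are then counted. Of the 10 single levels, 3 left their interval without weights, 8 per coding length, and 1, AT4G40030, with the lowest isoform (added after the data were seen). The log2 ratio of AT4G40040 to the H4 gene AT5G59970 was 0.57, and -0.0064 without weights (added after the data were seen); the cause was not tested. The same 5 genes carried a hotspot when at least 50% of it had to lie in exons, with scores better than the median only, over whole gene spans, and over the exons of any isoform (added after the data were seen). On the opposite strand the number was 0. The background share of 57.8% was 46.6% over the 1892 genes in the length and level range of all 10 H3 genes. With words of 30 nt, also added after the data were seen, the share of H3.1 and H3.3 coding words found once was 94.7% in place of 86.2%. The median of H2A, H2B and H4 genes was 4.37 RPKM, and 4.16 RPKM with the gene at 0 included. CENH3 and MGH3 rest on 2 clones each, so their order and distance from the median gene are not resolved at this depth. No paired analysis was possible because each assay had 1 library.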

Other observations

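Octamer promoters and level could be set side by side within the H3 genes, a comparison chosen after the values were seen and without a test. The 3 H3.1 genes with the octamer stood at 9.18, 7.44 and 5.82 RPKM, and the 2 without it, AT3G27360 and AT5G10390, at 2.86 and 2.67 RPKM. Of the H3.3 genes, AT4G40040 with the octamer stood at 18.7 RPKM and the 2 without it at 8.67 and 4.46 RPKM. The H4 genes did not show this order: the 2 with the octamer were the highest, AT5G59690 at 13.0 RPKM, and the lowest, AT1G07660 at 2.44 RPKM. The 3 H2A genes with it, HTA6, HTA10 and HTA13, stood at 5.63, 6.22 and 2.85 RPKM. The H2A genes without it ran from HTA4 at 0 to HTA9 at 6.26 RPKM, the highest of the H2A list. None of the 10 H2B genes had it, and they ran from 0.779 to 14.0 RPKM.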
